A study of Mus musculus with 4 samples.

Results

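The pentose phosphate pathway enzymes were taken as 7 genes of a raw RNA-seq count table of 37620 Ensembl gene identifiers, matched by their mm9 gene symbols: G6pdx, Pgls, Pgd, Tkt, Taldo1, Rpia and Rpe. Each symbol matched 1 row. The RNA came from mouse embryonic stem cells (mESCs) grown in serum with LIF, in 2 WT_CTCF and 2 MUT_CTCF libraries. In both lines the endogenous CTCF, an architectural DNA-binding protein, carried EGFP and an auxin-inducible degron, was degraded with auxin, and was replaced from a vector. The replacement was wild-type CTCF in WT_CTCF mESCs and, in MUT_CTCF mESCs, CTCF changed at T668 so that it cannot carry the sugar O-GlcNAc there. Each line was a picked clone with CTCF near the endogenous level, so the difference between clones and the difference between CTCF forms cannot be told apart. The study's methods call the 2 samples of a line biological replicates, while the labels name no separate cultures, and p-values measure only the spread between these libraries.

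The pentose phosphate pathway leaves glycolysis at glucose 6-phosphate. Its oxidative branch, made of G6pdx, Pgls and Pgd, oxidises that sugar to ribulose 5-phosphate and reduces NADP+ to NADPH, which cells spend on lipid synthesis and on glutathione reduction. Its non-oxidative branch, made of Rpia, Rpe, Tkt and Taldo1, interconverts pentose phosphates with the sugars of glycolysis, so that ribose 5-phosphate for nucleotides can be drawn from either side. Dividing stem cells are known for a high demand for both products.

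Promoter windows are given for the pathway's entry enzyme (G6pdx), for the member whose RNA lay nearest to the threshold (Pgd) and for the member with the most reads (Tkt). Each is the 250 bases before the RefSeq transcription start in build GRCm38.p6, read 5′ to 3′ on the gene's own strand. Capitals mark GCGTG, a core of hypoxia-inducible factor sites (or its complement CACGC), and in G6pdx also TGACNNNGC, the core of the antioxidant response element bound by NRF2, read as its complement. The window of G6pdx is chrX:74428881-74429130 (minus strand), that of Pgd is chr4:149166706-149166955 (minus strand) and that of Tkt is chr14:30548881-30549130 (plus strand). Pgd has 2 windows in the table, of which the first is printed.
G6pdx: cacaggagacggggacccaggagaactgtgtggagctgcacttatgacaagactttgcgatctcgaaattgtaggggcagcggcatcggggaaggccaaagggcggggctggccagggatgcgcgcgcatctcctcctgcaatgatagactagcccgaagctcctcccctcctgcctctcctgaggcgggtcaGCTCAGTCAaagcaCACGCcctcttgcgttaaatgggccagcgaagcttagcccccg
Pgd: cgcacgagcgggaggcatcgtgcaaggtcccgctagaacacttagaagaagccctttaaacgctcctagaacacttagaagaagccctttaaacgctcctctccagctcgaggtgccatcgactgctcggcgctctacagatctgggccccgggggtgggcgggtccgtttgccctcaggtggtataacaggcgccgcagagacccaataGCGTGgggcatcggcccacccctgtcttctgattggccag
Tkt: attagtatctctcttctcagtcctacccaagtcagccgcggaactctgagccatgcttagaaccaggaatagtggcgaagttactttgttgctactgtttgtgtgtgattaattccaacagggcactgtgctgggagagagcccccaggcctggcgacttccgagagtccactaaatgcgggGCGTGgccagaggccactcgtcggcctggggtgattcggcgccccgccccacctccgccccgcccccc

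Of the 7 genes, with 8 windows between them, 6 had GCGTG on either strand in at least 1 window. Rpe had none, nor did the second window of Pgd. Counted by window and not by gene, 28.2% of the 32851 windows of the same length in the table held it. The core ACGTG was in no window of a member, against 16.6% of all windows. The antioxidant core was in the window of G6pdx alone among the members, against 10.2% of all windows. The second window of Pgd held 52.0% G and C and the other member windows 54.4% to 64.4%, where the median window held 52.4%. The matches were not compared with windows of like G and C content. These matches describe the letters of each window and no binding was measured here.

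The 4 libraries held between 40524694 and 40977464 counts, and the 7 enzymes together took 0.163% to 0.165% of them. All 7 passed edgeR's filter on low counts, among 16264 genes tested. Normalized counts are counts scaled by TMM to the mean library, with factors from 0.994 to 1.01. Pou5f1, Sox2 and Nanog, which define the pluripotent state, had at least 20711 counts in every library. Of 9 stem cell markers tested, 1 was called higher and 2 lower, where 1.56% of all tested genes were called higher and 1.61% lower. The log2 difference was 0.095 for Sox2, the 1 higher, and -0.099 for Dppa5a and -0.21 for Utf1. An unadjusted p under 0.05 in edgeR was found for 6 of the 9, against 15.3% of all tested genes. The summed markers lay from 255485 to 257873 normalized counts in WT_CTCF and from 254176 to 254245 in MUT_CTCF libraries. The summed fibroblast markers (10 genes) lay from 1908 to 1993 normalized counts in WT_CTCF and from 1979 to 2197 in MUT_CTCF libraries, with Lum and Fap at 0 throughout. Of the 6 fibroblast markers tested none was called, with 4 above 0 and 2 below. Only Col3a1 had an unadjusted p under 0.05 in edgeR, with a log2 difference of -1.52 on 5 to 26 counts. The summed primitive endoderm markers (8 genes) lay from 3462 to 3628 and from 3457 to 3725 normalized counts, most of them from Col4a1. Of the 6 primitive endoderm markers tested none was called and the median log2 fold change was 0.33. The log2 difference was above 0 in 4 and below 0 in 2, Dab2 (-0.21) and Col4a1 (-0.040). An unadjusted p under 0.05, a mark that 15.3% of all tested genes passed, was found for 2. These were Gata6, with 53.6 ± 4.93 normalized counts in WT_CTCF and 103 ± 7.33 in MUT_CTCF mESCs (SD, n = 2; edgeR, adjusted p = 0.0733), and Sox17, with 51.6 ± 7.77 and 87.0 ± 30.5 (SD, n = 2; edgeR, adjusted p = 0.259). Dppa5a, Utf1, Col3a1, Gata6 and Sox17 were named after their values were seen. For Gata6 and Sox17 the MUT_CTCF libraries lay above the WT_CTCF libraries, as they did for 22.3% of all tested genes. Ctcf itself had 18302 and 18669 normalized counts in WT_CTCF and 18791 and 19325 in MUT_CTCF libraries, and a change of 1 residue does not show in this total. Nor does the total separate RNA of the tagged endogenous gene from RNA of the vector. The part of these marker differences in the results given here was not tested. In bulk RNA, fewer cells of a kind and less RNA per cell cannot be told apart.

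Across the pathway the transcript levels of the 2 lines lay close together. None of the 7 enzymes was called at an adjusted p under 0.05 in edgeR's quasi-likelihood test, where 1.56% of all tested genes were called higher and 1.61% lower in MUT_CTCF mESCs. Scaling by library size alone turned the all-gene calls from 253 higher and 262 lower (49.1% higher) into 260 higher and 152 lower (63.1% higher), and it called no member either. Pgd was the 1 member with an unadjusted p under 0.05, a mark that 15.3% of all genes passed, and DESeq2 called this gene lower, while edgeR's exact test called 0 of the 7. No member met the study's own criterion (p under 0.05 before adjustment, and more than 2-fold up or down), which 1.3% of all genes met. The log2 fold changes of the 7 lay between -0.10 and 0.10 with a median of 0.016, beside a median of 0.0034 over all tested genes. Their median absolute log2 fold change was 0.067, against 0.106 over all tested genes. With TMM scaling, in 2 members, Pgd and Rpe, both MUT_CTCF libraries lay below both WT_CTCF libraries, and in no member did they lie above, where 22.3% of all tested genes were separated downward and 22.3% upward. Scaled by library size alone, the separated members were Pgd (below) and Tkt (above), and Rpe overlapped.

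**Figure D1:**
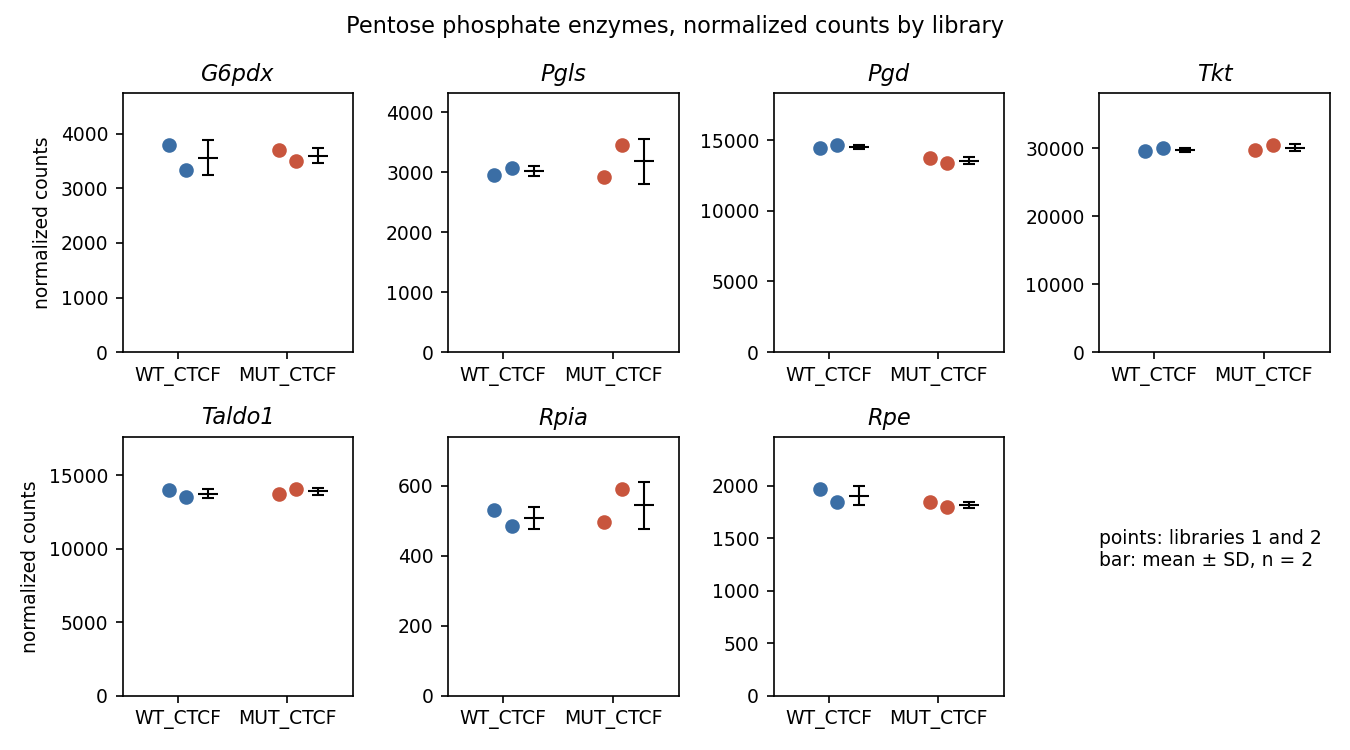
Normalized counts of each pentose phosphate enzyme (vertical axes start at 0) in the 2 WT_CTCF libraries (blue) and the 2 MUT_CTCF libraries (red), with the mean and SD of each line in black. Pgd and Rpe are the panels in which the red points lie below the blue ones, Rpe by a margin too small to see and lost when scaled by library size alone.

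G6pdx (chromosome X of mm9, 71654822 to 71674533, minus strand) encodes glucose 6-phosphate dehydrogenase, which commits glucose 6-phosphate to the pathway and makes its first NADPH. Its normalized counts were 3790 and 3336 in WT_CTCF and 3699 and 3500 in MUT_CTCF libraries. The MUT_CTCF values fell inside the span of the WT_CTCF values, whose own gap was 0.18 on the log2 scale. The fitted log2 difference was 0.015 with a standard error of 0.052 (edgeR, adjusted p = 0.940), so that the 95% interval of the MUT_CTCF to WT_CTCF ratio ran from 0.940 to 1.09. The sign depended on the library: leaving out the second WT_CTCF library gave -0.076 and leaving out the first MUT_CTCF library gave -0.026, while leaving out the first WT_CTCF library gave 0.11. A retrocopy, G6pd2, matched 87.5% of the longest G6pdx coding transcript at 93.1% identity, and it had 0 counts in all 4 libraries. G6pdx also shares 418 exon bases with Ikbkg on the other strand, which had 981 to 1058 normalized counts, and the strand setting of the counting is not given in the sources used here.

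Pgls encodes 6-phosphogluconolactonase, which opens the lactone made by the dehydrogenase. Its gene lies on chromosome 8 of mm9 at 74116075 to 74124991 (plus strand). Pgls had 2959 and 3076 normalized counts in WT_CTCF libraries and 2918 and 3450 in MUT_CTCF libraries. One MUT_CTCF library was the lowest and the other the highest of the 4. The fitted log2 difference of 0.077 (standard error 0.057, adjusted p = 0.578, edgeR) gave a ratio between 0.975 and 1.14 at 95%. The sign rested on the second MUT_CTCF library, without which the difference was -0.050. It was 0.19 when the first was left out. Pgls shares 776 exon bases with Fam129c on the same strand, a gene with 129 to 211 normalized counts.

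Pgd (chromosome 4, 148524100 to 148540880, minus strand) encodes 6-phosphogluconate dehydrogenase, the enzyme of the second NADPH and of ribulose 5-phosphate. It had 14411 and 14631 normalized counts in WT_CTCF libraries, a mean of 14521 ± 156 (SD, n = 2). In MUT_CTCF libraries it had 13712 and 13379, a mean of 13545 ± 235 (SD, n = 2). The lines did not overlap, and the 4 ratios of a MUT_CTCF to a WT_CTCF library lay between -0.13 and -0.072 on the log2 scale, while replicates differed by 0.022 and 0.035. The fitted log2 difference was -0.10 (standard error 0.030), a ratio of 0.933 with a 95% interval from 0.894 to 0.973. Its unadjusted p was 0.00173, and its adjusted p of 0.0531 from edgeR missed the threshold of 0.05. Of 10 alternatives without a block on the replicate number, 2 called it: DESeq2 (adjusted p = 0.0495) and a filter asking for 10 or more reads per library (adjusted p = 0.0441), with 0.492 as the highest adjusted p. The log2 difference kept its direction in all 10, from -0.12 to -0.084, the latter when the second MUT_CTCF library was left out. No near copy of its transcript and no shared exon was found for Pgd.

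**Figure D2:**
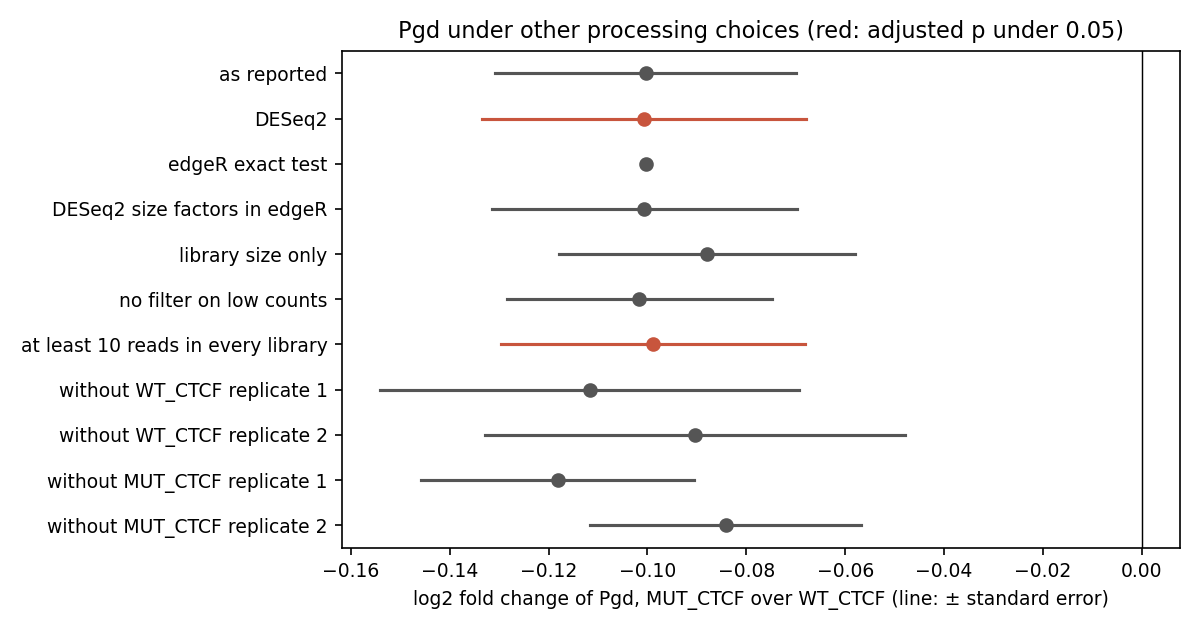
Log2 fold change of Pgd, MUT_CTCF over WT_CTCF, as reported and under other tests, scalings, filters and with each library left out, with ± 1 standard error (none is given for the exact test). The fit with the replicate number as a block is not drawn. All points lie left of 0, between -0.12 and -0.084, and red marks the settings with an adjusted p under 0.05.

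The non-oxidative branch begins with the enzymes acting on ribulose 5-phosphate. Rpia (chromosome 6, 70715714 to 70742226, minus strand) encodes the isomerase that yields ribose 5-phosphate. It was the least counted member, with 529.8 and 484.1 normalized counts in WT_CTCF and 496.7 and 590.8 in MUT_CTCF libraries. The lines overlapped, and the MUT_CTCF replicates stood 0.25 apart on the log2 scale. The log2 difference of 0.10 (standard error 0.117, adjusted p = 0.768, edgeR) was the least precise, with a ratio between 0.912 and 1.26 at 95%. Leaving out the second MUT_CTCF library turned it to -0.031, and leaving out the first raised it to 0.22.

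Rpe (chromosome 1, 66747405 to 66766379, plus strand) encodes the epimerase that yields xylulose 5-phosphate. Its normalized counts were 1973 and 1842.32 in WT_CTCF and 1841.98 and 1801 in MUT_CTCF libraries. Both MUT_CTCF values were below both WT_CTCF values, by less than 1 normalized count, and the lines overlapped when scaled by library size alone. The log2 difference was -0.067 (standard error 0.065, adjusted p = 0.702, edgeR), with a ratio between 0.873 and 1.04 at 95%, and leaving out the first or the second WT_CTCF library gave -0.017 or -0.12. A stretch of 1043 bases within Frmd5 on chromosome 2 is 95.9% identical to part of the Rpe transcript, and Rpe shares 563 exon bases with 1110028C15Rik on the other strand, which had at most 48.1 normalized counts.

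Tkt (chromosome 14, 31361545 to 31387908, plus strand) encodes transketolase, which moves carbon units of 2 between sugar phosphates with thiamine diphosphate. It had 29569 and 30031 normalized counts in WT_CTCF and 29797 and 30466 in MUT_CTCF libraries. The lines overlapped, but scaled by library size alone both MUT_CTCF libraries lay above both WT_CTCF ones. This was the most precise member, with a log2 difference of 0.016 (standard error 0.025, adjusted p = 0.845, edgeR) and a ratio between 0.976 and 1.05 at 95%. It was -0.0016 when the second MUT_CTCF library was left out.

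Taldo1 (chromosome 7, 148578098 to 148588867, plus strand) encodes transaldolase, which moves units of 3 carbons and links the pathway back to fructose 6-phosphate. It had 13987 and 13540 normalized counts in WT_CTCF and 13731 and 14094 in MUT_CTCF libraries. The highest and the second lowest values were both from MUT_CTCF. The log2 difference of 0.016 (standard error 0.031, adjusted p = 0.882, edgeR) left a ratio between 0.968 and 1.06 at 95%, and it turned to -0.0088 or -0.0049 when the second WT_CTCF or the second MUT_CTCF library was left out. A full-length copy of the Taldo1 transcript at 93.4% identity, annotated as Gm9766, had 3 and 2 counts in WT_CTCF and 16 and 8 in MUT_CTCF libraries.

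To compare the enzymes with each other, TMM-scaled CPM was divided by exon length in kilobases (CPM per kilobase). On the union of annotated exons, Taldo1 was the highest in WT_CTCF mESCs with 168.9 ± 3.88 (SD, n = 2), followed by Tkt with 111.8 ± 1.23 and Pgd with 55.2 ± 0.593. G6pdx had 28.4 ± 2.56, Pgls 19.6 ± 0.540, Rpe 15.0 ± 0.728 and Rpia 2.32 ± 0.148 (SD, n = 2 each). The order was the same in MUT_CTCF mESCs, and no library of one enzyme reached into the range of its neighbour in the order. These lengths include exon bases shared with other genes, 776 in Pgls, 563 in Rpe and 418 in G6pdx. How reads there were counted is not given, so these levels may be too low. Taldo1 and Tkt held 42.1% and 27.9% of the summed level of the 7 in WT_CTCF and 42.5% and 28.2% in MUT_CTCF mESCs. Measured on the longest coding transcript instead, which was chosen after the data had been seen, Pgls (49.3 to 58.3) moved above G6pdx (30.8 to 35.0), and the rest kept their places. The union of exons was 6533 bases for Tkt, 6447 for Pgd and 3770 for Pgls, against longest coding transcripts of 3225, 2218 and 1451 bases.

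**Figure D3:**
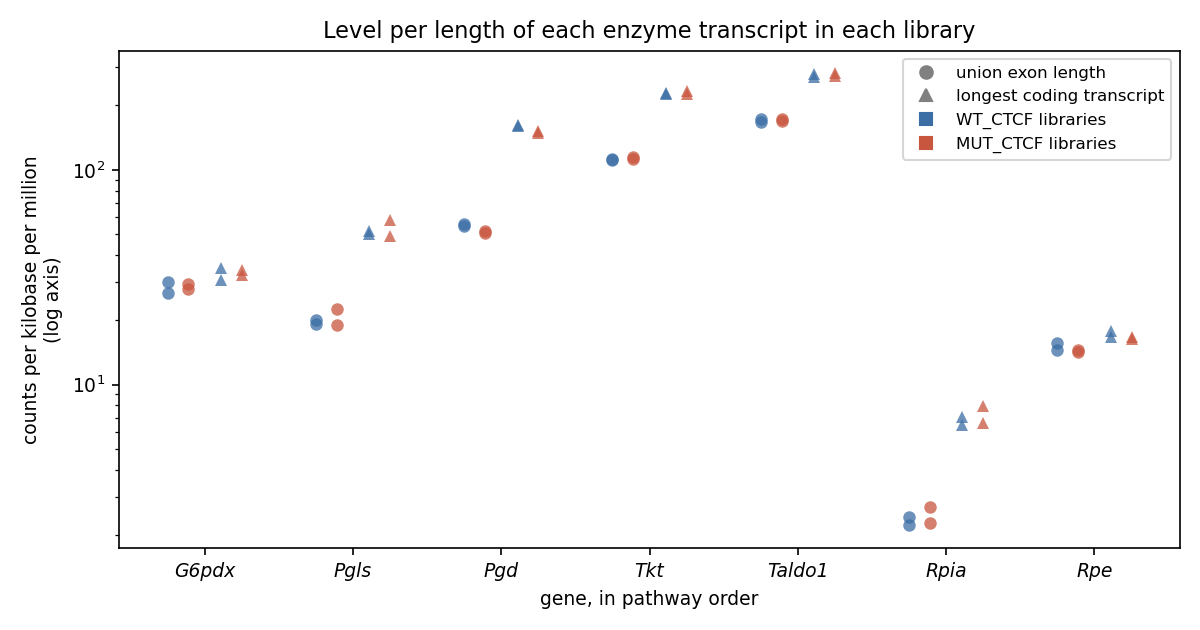
Level of each enzyme's RNA in each library, in CPM per kilobase on a log axis, on the union exon length (circles) and on the longest coding transcript (triangles). Taldo1 and Tkt are the highest and Rpia the lowest in all 4 libraries on both lengths, and G6pdx and Pgls change places.

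The oxidative enzymes made up 25.7% and 25.7% of the summed level per length in WT_CTCF libraries and 25.3% and 25.0% in MUT_CTCF libraries on the union exon length. On the longest coding transcript these shares were 31.6% and 31.9% against 31.0% and 30.8%. The MUT_CTCF libraries had the 2 lower shares on either length. With Pgd left out of the sums, the oxidative share was 14.1% and 13.6% in WT_CTCF and 14.01% and 14.2% in MUT_CTCF libraries, and the lines overlapped. No test was made of these shares, since 2 libraries a line allow no two-sided exact permutation p below 0.333.

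Genes around the pathway were counted from 3 further lists. In the wider list (20 symbols of related enzymes, 18 found, 16 genes tested), 2 genes rose, none fell, and the median log2 fold change was 0.053. Over all tested genes 1.56% were called higher and 1.61% lower. The phosphoglucomutase on chromosome 4, named Pgm2 in mm9 and Pgm1 in the later RefSeq table, links glycogen to glucose 6-phosphate. It rose from 2705 ± 13.5 to 3519 ± 153 normalized counts (SD, n = 2), by 0.38 on the log2 scale (edgeR, adjusted p = 7.72e-07). The phosphopentomutase on chromosome 5, named Pgm1 in mm9, makes ribose 5-phosphate from ribose 1-phosphate and rose by 0.23 (adjusted p = 0.0399), a call that DESeq2 did not make and that was lost without a filter on low counts and when the second WT_CTCF library was left out. No gene of the 3 lists was called when either MUT_CTCF library was left out. Pgm2 shares 398 exon bases with Itgb3bp. Both rows of Prps1l1 and, as given above, G6pd2 were at 0 in every library. For G6pd2 this leaves up to 0.0740 CPM (3 counts) by counting error alone. The rows of Prps1l1 share 1616 exon bases on the same strand. How reads that fit both rows were counted is not given, so their zeros set no such limit. The microsomal dehydrogenase gene H6pd, whose enzyme begins the oxidative steps in the endoplasmic reticulum, had a log2 difference of -0.019 (edgeR, adjusted p = 0.922).

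Of the genes at the glucose 6-phosphate branch point and the upper glycolytic steps (22 symbols, 20 tested), 8 rose in MUT_CTCF mESCs and none fell (median log2 fold change 0.099). The shares over all tested genes were 1.56% higher and 1.61% lower. Tpi1, the triose isomerase gene, rose by 0.47 (adjusted p = 2.05e-15), Pfkp by 0.37 (adjusted p = 5.65e-11) and Pfkl by 0.32 (adjusted p = 6.70e-09), the last 2 being phosphofructokinase genes. Aldoc rose by 0.99 (adjusted p = 2.51e-09) and Aldoa by 0.14 (adjusted p = 1.59e-05), both encoding aldolases (all from edgeR). With no filter on low counts 4 of the list were called, Aldoa not among them, and DESeq2 did not call Aldoc. Genes to which DESeq2 gave no adjusted p, such as Rpia, were taken as not called. Whether Aldoc was among these was not recorded. As for the list before, 0 were called when either MUT_CTCF library was left out, with 0.138 and 0.180 as the lowest adjusted p. Gapdh had a log2 difference of -0.0038 (adjusted p = 0.951). The difference between these genes and the pentose phosphate enzymes was not tested.

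A list of other NADPH-related genes had 16 symbols and 13 genes tested, with a median log2 fold change of 0.034. It included Nadk, the NAD kinase gene, and Mthfd1l, a formyltetrahydrofolate synthetase gene, neither of which reduces NADP+. Which of the other enzymes make NADPH in these cells was not measured. Of the list 2 rose and 1 fell, where 1.56% of all tested genes were called higher and 1.61% lower. The cytosolic isocitrate dehydrogenase gene Idh1 went from 15905 ± 32.6 to 14601 ± 420 normalized counts (SD, n = 2) and fell by 0.12 on the log2 scale (adjusted p = 0.0100, edgeR), a call lost when any 1 library was left out. Mthfd1l rose by 0.24 (adjusted p = 0.000821) and Mthfd2 by 0.23 (adjusted p = 0.000954), both genes of mitochondrial folate enzymes. The call of Mthfd2 was lost without the second WT_CTCF library, and both were lost without either MUT_CTCF library. None of the 3 was called without a filter on low counts, where 26 genes in all were called higher and 3 lower.

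**Figure D4:**
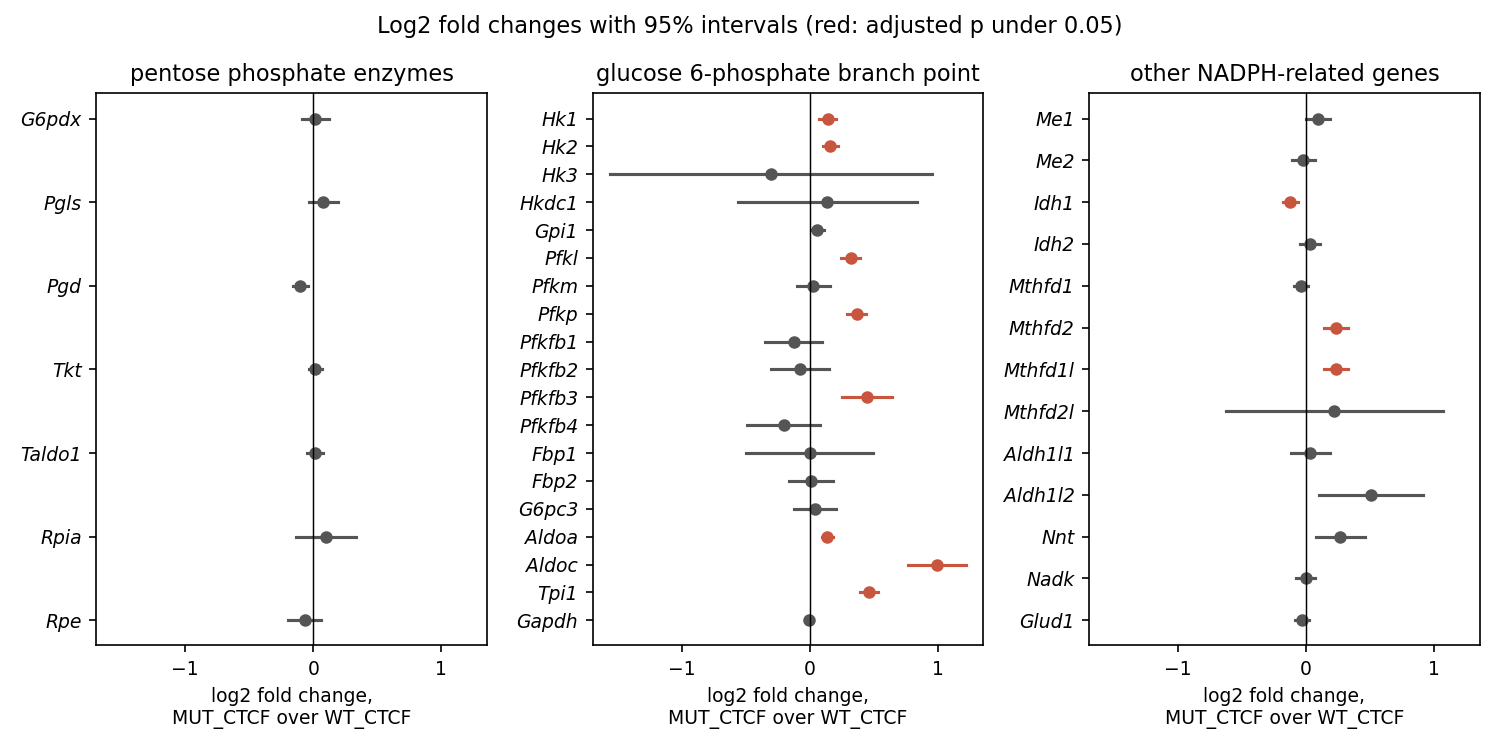
Log2 fold changes (MUT_CTCF over WT_CTCF) with 95% intervals from edgeR for the 7 pentose phosphate enzymes, 19 of the 20 tested genes of the glucose 6-phosphate branch point and 13 other NADPH-related genes. No pentose phosphate enzyme is red (adjusted p under 0.05), against 8 branch point genes, all to the right of 0, and 3 of the NADPH-related genes.

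The pattern of the 7 enzymes over the 4 libraries was summarised by their median log2 CPM, centred on the mean of each gene, and the nearest tested genes of the 3 lists were sought by Euclidean distance. These were Gapdh (distance 0.010), H6pd (0.042) and Prps1 (0.044), the last making the phosphoribosyl pyrophosphate that carries ribose 5-phosphate into nucleotides. The median profile itself stayed within 0.024 of 0 on the log2 scale, so that the distance favours genes that differ little between libraries, and members with other patterns, such as Pgd, are not represented by it.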

How the data were processed

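RNA-seq counts of 2 WT_CTCF and 2 MUT_CTCF libraries were used. Per the labels and the methods of the study, reads were trimmed with Trim Galore 0.4.4, aligned to mm9 with STAR, and uniquely mapped reads were counted per gene with HTSeq 0.9.1. The authors deposited these counts without normalization. A second deposited table holds log2 fold changes, mean log2 CPM, p-values and false discovery rates of the authors' own comparison and was not used. The annotation used for counting and its strand setting are not given in the sources used here. Gene names, places and exon lengths were taken from GENCODE M1 (NCBIM37, the same build), which named 37205 of the 37620 identifiers.

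Genes were filtered with filterByExpr, scaled by TMM and tested with edgeR 4.0.16 (R 4.3.3), by glmQLFit and glmQLFTest on the line alone, with Benjamini-Hochberg adjustment over 16264 genes. Standard errors are the log2 fold change over the root of F, and 95% intervals use the t distribution with the moderated degrees of freedom. The fits were tested on simulated counts. Libraries of a line differed by more than sampling noise (chi-square per degree of freedom 3.65 and 4.33), so none was taken for a repeat deposit of another, which does not show that they are separate cultures. Near copies (at least 90% identity over 200 bases) were sought in the mm9 genome with minimap2 2.31-r1302. As alternatives, DESeq2 1.42.0 and the exact test of edgeR were run, as were other scalings and filters, a block on the replicate number and fits leaving out 1 library.

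The members and the gene lists were chosen with earlier results of these data known. The text names all 7 members, of each other list up to 5 genes with the smallest p among those called plus genes at 0 counts, the 3 nearest patterns, Ctcf, Pou5f1, Sox2 and Nanog. Values of 1 gene of the lists are not reported here.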

Additional observations from a re-analysis of the deposited data

How the results depend on the processing

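Of the 7 enzymes, 0 were called in the reported fit and none was called higher under any of the 11 alternatives. DESeq2, the filter asking for 10 or more reads per library and the replicate block each called 1 member lower, in each case Pgd. With the replicate number as a block the adjusted p of Pgd was 0.0246, but same-numbered libraries did not deviate together (correlation 0.0029 over tested genes), so the number is taken as a name only, and the block changed no other member's call. The study's criterion called 0 members throughout, also with a fold limit of 1.5, and 2 members were without overlap under each of 3 scalings, Pgd and Rpe with TMM and with DESeq2 size factors, but Pgd and Tkt with library size alone. Without a filter, 26 genes were called higher and 3 lower over all 23739 genes tested. DESeq2 called 129 higher, with genes to which it gave no adjusted p (Rpia among them) taken as not called. Library size alone called 152 lower. Leaving out 1 library gave 0 to 140 genes higher and 0 to 102 lower (63 without WT_CTCF replicate 1). Without either MUT_CTCF library there were no calls, with 1651 and 1585 genes at an unadjusted p under 0.05. Here the lone library of a line is assumed to vary like the others. The signs of 5 members turned in these fits, with log2 differences from -0.076 to 0.11 for G6pdx, -0.050 to 0.19 for Pgls, -0.0016 to 0.032 for Tkt, -0.0088 to 0.039 for Taldo1 and -0.031 to 0.22 for Rpia. Those of Pgd and Rpe did not turn. Precision was lowest for Rpia, the member with the fewest counts.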

Other observations

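Some related genes below the threshold had larger log2 differences than the 7 enzymes, on far fewer reads. They were named after their values were seen. Shpk, whose kinase phosphorylates sedoheptulose and so feeds the non-oxidative branch, had 122 ± 13.4 normalized counts in WT_CTCF and 177 ± 26.4 in MUT_CTCF mESCs (SD, n = 2), a log2 difference of 0.54 (edgeR, adjusted p = 0.180). Tktl1, a transketolase-like gene on the X chromosome, had 159 ± 4.17 and 126 ± 30.6 (SD, n = 2), a log2 difference of -0.34 (adjusted p = 0.508). The lines did not overlap for Shpk (MUT_CTCF above) or Tktl1 (MUT_CTCF below). Of all tested genes, 22.3% were separated upward and 22.3% downward. In the wider list, which holds both genes, 7 of 16 tested genes were separated upward and 1 downward.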
